A study of Mus musculus with 6 samples.

Results

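Antigen presentation genes were followed through 6 single-cell libraries of mouse lung and cerebral cortex. The set held 10 genes out of 56884 counted, picked by symbol as known genes of antigen presentation at a time when earlier results of these data were known: 6 genes of the class I pathway (H2-K1, H2-D1, B2m, Tap1, Psmb8 and Nlrc5) and 4 genes of the class II pathway (Cd74, H2-Aa, H2-Ab1 and H2-Eb1). All 10 were found in each library, and each symbol was matched to 1 row. Cells of 2 mice were pooled into 1 BD Rhapsody whole-transcriptome library per genotype, from lung at P21 (Bdnf and Hgf pairs) or cortex at P12 (Nodal pair). The methods call the 2 mice of a lung library littermates. In each iPCKO library Bdnf, Hgf or Nodal, as lox/lox alleles, was inactivated with the Pdgfrb(BAC)-CreERT2 transgene, which is active in pericytes and in other cells that express Pdgfrb. The paired controls were lox/lox mice without CreERT2. The labels give 50 µg tamoxifen daily from P1 to P3 for every library, controls included. Cells carrying CD45 or Ter119 were depleted from the lung suspensions, meninges and myelin debris were removed from the cortex, and the sexes were not separated.

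Class I molecules sit on nearly all nucleated cells and show peptides from inside the cell to cytotoxic T cells. They consist of a heavy chain, such as H2-K1 or H2-D1, and the light chain B2m. Psmb8 is a catalytic subunit of the immunoproteasome, the interferon-induced form of the proteasome that cuts such peptides, Tap1 is a subunit of the transporter that carries them into the endoplasmic reticulum, and Nlrc5 is a transcriptional activator of class I genes. Class II molecules present peptides taken up from outside the cell to helper T cells and are made mainly by dendritic cells, B cells and macrophages, but also by alveolar type 2 (AT2) cells, the surfactant-producing epithelial cells of the lung. H2-Aa and H2-Ab1 encode the alpha and beta chain of the I-A molecule, H2-Eb1 encodes the beta chain of I-E, and Cd74, the invariant chain, escorts class II molecules through the cell. Resting microglia, the resident macrophages of the brain, carry little class II, and interferons raise both pathways.

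In the GRCm39 genome, 7 of the 10 genes lie in the major histocompatibility complex on chromosome 17: H2-K1 (chr17:34214987-34219321, minus strand), Tap1 (chr17:34405996-34416199, plus strand), Psmb8 (chr17:34416690-34420428, plus strand), H2-Ab1 (chr17:34476663-34488393, plus strand), H2-Aa (chr17:34493404-34506798, minus strand), H2-Eb1 (chr17:34504236-34535648, plus strand) and H2-D1 (chr17:35481691-35486475, plus strand). B2m is at chr2:121977957-121983594 and Nlrc5 at chr8:95160984-95253900, both on the plus strand, and Cd74 lies on a further chromosome. These positions are those of whole genes in Gencode vM39, not the annotation the authors used. H2-Aa and H2-Eb1 overlap on opposite strands, as do Tap1 and Psmb9.

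The promoters of 4 members are shown because genes of the same class moved together in several of the comparisons that follow. RefSeq promoters (250 bases before to 50 after the gene's start, build GRCm38.p6) were found for 7 of the 10 members; H2-Ab1, Nlrc5 and Cd74 had none in the table. Capitals mark matches to 4 short motifs on either strand, namely CCAAT or ATTGG (the core of the Y box), AGCAAC or GTTGCT (the core of the X box), an interferon response element (GAAA, any 2 bases, GAAA, or its reverse complement) and a kappaB site (GGGGA, any base, TCCCC, the same on both strands). No marked match overlapped another.
H2-K1 (class I heavy chain, chr17:34000298-34000597, minus strand): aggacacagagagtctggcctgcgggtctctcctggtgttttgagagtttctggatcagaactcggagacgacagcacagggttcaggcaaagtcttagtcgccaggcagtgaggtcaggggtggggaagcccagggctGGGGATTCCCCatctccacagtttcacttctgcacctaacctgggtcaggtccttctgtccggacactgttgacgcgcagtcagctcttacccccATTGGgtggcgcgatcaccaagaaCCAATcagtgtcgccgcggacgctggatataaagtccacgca
B2m (class I light chain, chr2:122147437-122147736, plus strand): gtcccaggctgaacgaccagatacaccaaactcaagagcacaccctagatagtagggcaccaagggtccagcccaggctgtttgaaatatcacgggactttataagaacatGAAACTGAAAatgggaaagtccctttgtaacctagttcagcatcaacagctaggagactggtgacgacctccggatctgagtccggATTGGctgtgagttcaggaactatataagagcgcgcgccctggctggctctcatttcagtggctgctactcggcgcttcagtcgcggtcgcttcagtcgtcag
H2-Aa (I-A alpha chain, chr17:34287774-34288073, minus strand): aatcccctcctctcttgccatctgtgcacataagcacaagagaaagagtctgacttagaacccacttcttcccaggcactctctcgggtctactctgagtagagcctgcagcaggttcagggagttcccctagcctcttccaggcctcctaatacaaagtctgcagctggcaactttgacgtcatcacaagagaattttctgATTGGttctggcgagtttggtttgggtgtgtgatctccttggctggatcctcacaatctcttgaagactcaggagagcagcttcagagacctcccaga
H2-Eb1 (I-E beta chain, chr17:34305617-34305916, plus strand): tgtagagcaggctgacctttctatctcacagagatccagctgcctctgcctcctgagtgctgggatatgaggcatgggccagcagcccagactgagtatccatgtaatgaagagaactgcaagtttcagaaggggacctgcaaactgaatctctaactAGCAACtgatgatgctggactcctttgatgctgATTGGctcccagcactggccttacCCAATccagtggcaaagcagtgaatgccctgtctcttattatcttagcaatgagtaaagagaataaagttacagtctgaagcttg
The Y box core stood in the promoters of H2-K1, H2-D1, B2m, Tap1, H2-Aa and H2-Eb1, 6 of the 7, and in 37.4% of all 32851 promoters. The X box core stood only in that of H2-Eb1 among the 7, against 14.8% of all promoters. The pattern set for the interferon response element was matched in that of B2m alone among the members (3.44% of all). The kappaB site was present in those of H2-K1 and H2-D1 and in 16 promoters in all (0.0487%). These are matches of letters, not measured binding sites, and an element whose letters vary from these patterns is missed.

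Each library held between 33889545 and 186701379 UMIs, and barcodes with at least 1500 UMIs (700 in the Hgf pair) were kept, which gave 17155 and 24311 barcodes in the Bdnf pair (control first throughout), 14623 and 16156 in the Hgf pair and 3237 and 5009 in the Nodal pair. Cell types were assigned from marker genes that did not include the members, and types are called "-like" because no reference annotation was used. Between 8.96 and 21.3% of barcodes met no type, and libraries shared 16 to 296 assigned barcodes, against 15 to 306 expected of independent draws, with the largest relative excess (85 against 63) between the Nodal iPCKO and the Hgf control library. Levels are given as UMIs per 1000000 UMIs (CPM) of the cells of a type, which counts molecules and is not scaled by gene length. With 1 library per genotype no spread between animals could be estimated and no p-value is given. The intervals in brackets are exact 95% intervals that cover counting error only, and a gene is called past 2-fold only as a description of 2 libraries. Among pericyte-like cells, the targeted gene was found with 12 and 3 UMIs for Bdnf (126 and 138 cells), with 24 and 10 UMIs for Hgf (96 and 226 cells) and with 184 and 0 UMIs for Nodal (249 and 375 cells). Over all barcodes Bdnf stood at 29.8 and 27.6 CPM, Hgf at 9.07 and 2.68 CPM and Nodal at 6.75 and 0.102 CPM.

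Where the genes were expressed in control mice differed between the classes. Class I, as the sum of its 6 genes, was highest in endothelial-like cells of the lung and in microglia-like cells of the cortex, whereas class II, as the sum of its 4 genes, was highest in AT2-like cells of the lung. In the Bdnf and Hgf control lungs class I stood at 6931 CPM (95% interval 6896 to 6967) and 6603 CPM (6558 to 6648) in endothelial-like cells. AT1-like cells followed with 2063 and 2435 CPM, AT2-like cells with 1821 and 1626 CPM and lymphatic-like cells with 1785 and 2237 CPM. The intervals of AT2-like and lymphatic-like cells overlapped in the Bdnf control, as did those of AT1-like and lymphatic-like cells in the Hgf control, and those of AT2-like and adventitial fibroblast-like cells (1608 CPM) overlapped in the Hgf control. Airway cells were low, with 875 and 960.0 CPM in club-like and 713 and 784 CPM in ciliated-like cells, and smooth muscle-like cells of the Bdnf control stood at 609 CPM. Only types with at least 50 cells in both libraries of a pair are ordered here.

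Within the lung endothelium the capillaries carried most class I. General capillary (gCap)-like cells held 8538 and 7986 CPM of class I and aerocyte (aCap)-like cells 8726 and 6379 CPM, against 4706 and 4372 CPM in venous-like and 4783 and 4812 CPM in arterial-like cells. In the Bdnf control the intervals of gCap-like (8467 to 8609 CPM) and aCap-like cells (8612 to 8841 CPM) did not overlap, while those of venous-like and arterial-like cells overlapped. The level of class II in these cells was low and ordered otherwise, with 90.7 and 155 CPM in gCap-like, 63.4 and 190.4 CPM in venous-like, 31.8 and 25.7 CPM in arterial-like and 27.8 and 22.2 CPM in aCap-like cells. In the Hgf control 1 venous-like cell held 72 of the 337 class II UMIs of its type. Free RNA, seen in barcodes without a cell, held class II at a higher level than any of these subtypes. From AT2 markers it was estimated at 5.38 and 4.82% of the UMIs of gCap-like and 3.05 and 2.35% of those of venous-like cells. The estimates were 3.73 and 3.17% in arterial-like and 4.33 and 3.37% in aCap-like cells. The part of free RNA in these class II levels and their order was not tested.

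The level of class II reached 3045 CPM (3030 to 3059) in AT2-like cells of the Bdnf control and 2384 CPM (2366 to 2402) in those of the Hgf control. The next highest types were ciliated-like cells with 148 and 152 CPM and endothelial-like cells with 64.7 and 109 CPM. Few ciliated-like cells carried that level: the 11 cells highest in class II held 64.1% of the UMIs of 221 cells in the Bdnf control and 62.6% of those of 211 cells in the Hgf control, and the median cell held none. Barcodes without a cell, which show free RNA, held class II at 719 and 605 CPM. From AT2 markers, free RNA was estimated at 4.52 and 3.78% of the UMIs of endothelial-like cells, and its part in their class II level was not tested. For 100 Cd74 UMIs the endothelial-like cells held 91.4 and 269 of H2-Aa and 105 and 361 of H2-Ab1. AT2-like cells held 47.0 and 74.7 of H2-Aa and 34.1 and 57.6 of H2-Ab1. Free RNA held 206 CPM of H2-Aa beside 309 CPM of Cd74 in the Bdnf control and 176 CPM beside 237 CPM in the Hgf control. Ratios with the free RNA subtracted are given beside those of the class II members in lung endothelial-like cells.

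In the cortex class I stood at 4040 CPM (3987 to 4093) in microglia-like cells of the Nodal control, at 1423 CPM in endothelial-like, 579 CPM in fibroblast-like, 504 CPM in pericyte-like, 463 CPM in smooth muscle (vSMC)-like, 176 CPM in astrocyte-like and 119 CPM in neuron-like cells. The intervals of fibroblast-like (538 to 621 CPM) and pericyte-like cells (468 to 543 CPM) overlapped, as did those of pericyte-like and vSMC-like cells. The sum of class II stood at 102 CPM (93.8 to 111) in microglia-like and 59.3 CPM (46.9 to 74) in fibroblast-like cells and at 13.6 CPM or less in the other types with at least 50 cells. Of the class II UMIs in fibroblast-like cells 75.6% lay in 5 of 94 cells, and the median cell held none. B2m by itself made up the larger part of class I in microglia-like cells, with 2433 CPM, whereas H2-D1 was the most abundant member in lung endothelial-like cells, with 3402 and 2637 CPM.

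**Figure D1:**
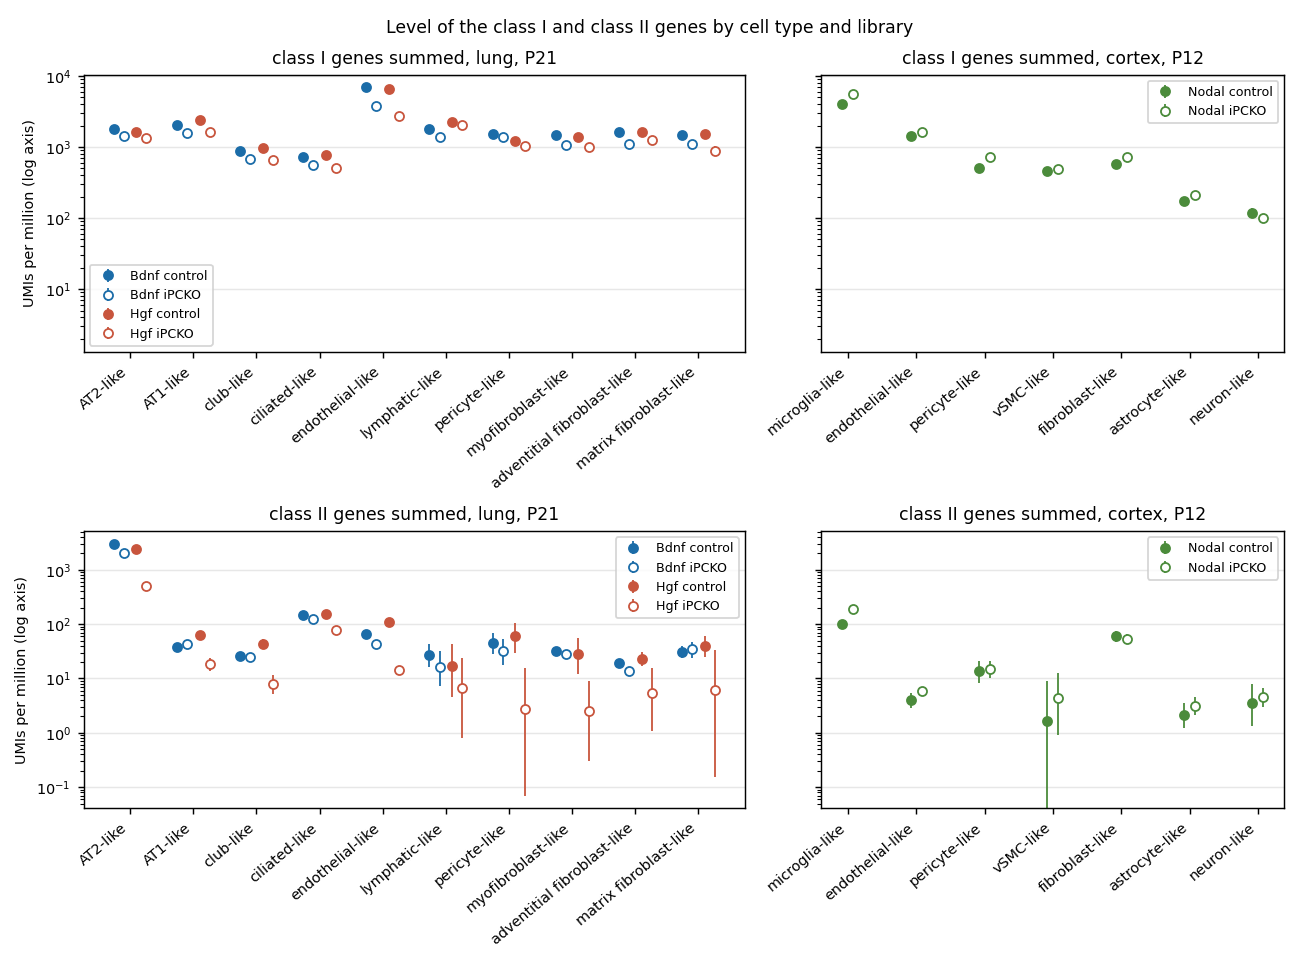
Summed level of the 6 class I genes (top) and the 4 class II genes (bottom) in UMIs per 1000000 on a log axis, in lung (left) and cortex (right). Cell types with at least 50 cells in every lung library, or in both cortex libraries, are shown, which leaves out smooth muscle-like cells of the lung. Filled circles are control and open circles iPCKO libraries, and whiskers are 95% counting intervals. Class I is highest in endothelial-like cells of the lung (6931 and 6603 CPM in the controls) and class II in AT2-like cells (3045 and 2384 CPM), where the Hgf iPCKO library stands lowest (499 CPM).

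The Hgf pair asks how loss of Hgf from pericytes affects the lung. Class II in AT2-like cells in the Hgf iPCKO library stood at 0.209 of the control level, and all 4 genes were lower together, while class I was lower by a small margin. Cd74 stood at 926 CPM in the control and 215 CPM in the iPCKO library, a log2 ratio of -2.10 (-2.16 to -2.05). H2-Aa stood at 692 and 145 CPM (log2 ratio -2.25, -2.32 to -2.19). H2-Ab1 went from 533 to 96.2 CPM (-2.47, -2.55 to -2.39) and H2-Eb1 from 233 to 42.5 CPM (-2.46, -2.58 to -2.34). Summed, class II stood at 2384 and 499 CPM (-2.26, -2.29 to -2.22).

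Class I genes in the same AT2-like cells of the Hgf pair differed much less, and the heavy chains least. H2-K1 was found at 574 and 452 CPM (log2 ratio -0.35, -0.39 to -0.30) and H2-D1 at 774 and 699 CPM (-0.15, -0.18 to -0.11). B2m, the light chain, stood at 236 and 150.2 CPM (-0.65), the transporter subunit Tap1 at 13.2 and 8.27 CPM (-0.68) and the immunoproteasome subunit Psmb8 at 27.2 and 15.5 CPM (-0.81). Nlrc5 was scarce, at 0.685 and 0.271 CPM, and its interval (-3.35 to 0.25) spanned 0. Summed class I was 1626 and 1325 CPM (-0.29, -0.32 to -0.27), and it came to -0.67 on the log2 scale without H2-K1 and H2-D1, an alternative added once the values were known.

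In these AT2-like cells 5 of the 10 members (Nlrc5 and the 4 class II genes) were at least 2-fold lower, against 7.46% of all 16999 genes tested, and 9 of 10 had a counting interval below 0, against 27.2% of all genes. The median log2 ratio was -2.35 for the class II members, -0.67 for the class I members and 0.00 for all genes. The AT2 markers themselves were also lower in the Hgf iPCKO library. The 9 markers summed to 136386 and 100007 CPM, a smaller difference than that of class II, and all 9 were detected in each library. Free RNA moved as well, with class II at 605 and 76.3 CPM and class I at 1457 and 908 CPM in barcodes without a cell. Subtracting the free RNA gave a class II log2 ratio of -2.25 in AT2-like cells. The part of the lower marker level in the result was not tested.

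Cell by cell, the class II difference in the Hgf pair ran through the AT2-like population. Cells with neither Cd74 nor a chain gene made up 2.75% (2.34 to 3.21) of 5707 AT2-like cells in the control and 39.9% (38.4 to 41.5) of 3958 in the iPCKO library. Cells with both Cd74 and a chain gene made up 87.3% (86.4 to 88.1) and 27.3% (25.9 to 28.7). The median number of class II UMIs per 10000 UMIs of a cell was 21.5 in the control and 2.76 in the iPCKO library, and the upper quartile of the iPCKO library (7.58) lay below the lower quartile of the control (12.3). AT2-like cells of the iPCKO library were shallower, with a median of 3618 against 4751 UMIs. After each cell was thinned to 700 UMIs, 73.0% and 25.3% of AT2-like cells still held a class II UMI. Endothelial-like cells of the same libraries, given for the background, held a class II UMI in 16.4% and 3.1% of cells, unthinned. No difference is read from these last shares, since free RNA held class II at 605 and 76.3 CPM.

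**Figure D2:**
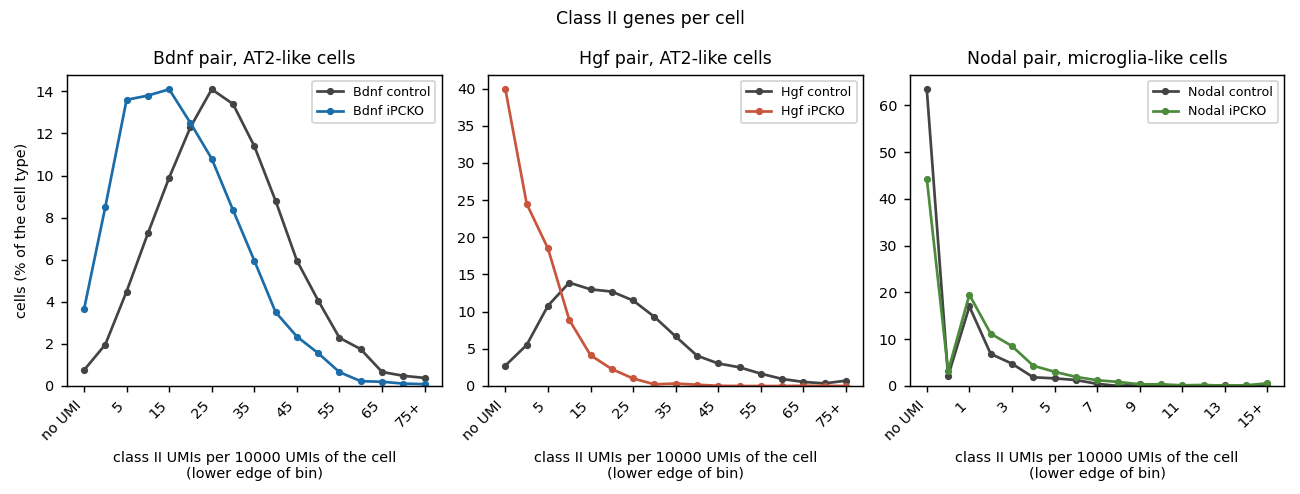
Distribution over cells of class II UMIs per 10000 UMIs of the cell (horizontal axis, lower edge of each bin, cells without a class II UMI at the left) as percent of the cells of the type (vertical axis), in AT2-like cells of the Bdnf and Hgf pairs and microglia-like cells of the Nodal pair. Grey lines are control and coloured lines iPCKO libraries, and the vertical scales differ between panels. The median of AT2-like cells lies at 29.7 and 18.6 in the Bdnf pair and at 21.5 and 2.76 in the Hgf pair, and microglia-like cells without a class II UMI make up 63.4% and 44.3%.

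Many of the other genes of the class II pathway were lower in AT2-like cells of the Hgf pair. Of 16 such genes 10 had enough UMIs, and 6 were at least 2-fold lower, against 7.46% of all genes, with a list median of -1.54 against 0.00 for all genes. Ciita, the master activator of class II transcription, stood at 21.5 and 1.49 CPM (log2 ratio -3.85, -4.53 to -3.23). H2-DMa and H2-DMb1, the chains of the molecule that loads peptides onto class II, stood at 29.4 and 4.5 CPM (-2.71) and at 39.3 and 10.5 CPM (-1.90). H2-DMb2, a further DM beta chain gene, was at 2.23 and 0.373 CPM (-2.58) and Rfx5, a subunit of the factor that binds the X box, at 10.4 and 4.61 CPM (-1.18). The costimulatory gene Cd80 was the sixth. Ifi30, a thiol reductase of the lysosome, went the other way (259 and 415 CPM, 0.68), and the ratios of Rfxank and Rfxap, the further subunits of the X box factor, had intervals that spanned 0.

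Interferon response genes were also lower in these AT2-like cells, with 6 of 10 past 2-fold, against 7.46% of all 16999 genes, and a list median of -1.33 against 0.00. Among them Isg15 stood at 2.78 and 0.542 CPM (log2 ratio -2.36), Rtp4 at 7.28 and 1.82 CPM and Gbp2 at 5.44 and 2.24 CPM (-1.28), and Ifit1 and Ifi27l2a were past 2-fold as well. Ifit3 stood at 4.48 and 4.92 CPM with an interval that spanned 0. The subunits of the constitutive proteasome had a median of 0.07 over 9 genes, with none past 2-fold. Psmb8 replaces Psmb5 in the immunoproteasome, and 104 UMIs of Psmb8 were counted for 100 of Psmb5 in the control and 64.2 in the iPCKO library. Of 11 further genes of the class I pathway, Psmb9, another immunoproteasome subunit, and the chaperone gene Calr were past 2-fold lower (list median -0.50).

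In endothelial-like cells of the Hgf pair all 10 members were lower, H2-D1 at the 2-fold line and the other 9 beyond it. B2m stood at 2351 CPM in the control and 756 CPM in the iPCKO library (log2 ratio -1.64, -1.67 to -1.61), H2-K1 at 1450 and 604 CPM (-1.26) and H2-D1 at 2637 and 1315 CPM, 0.499 of the control level (log2 interval -1.03 to -0.98). Tap1 was found at 55.3 and 24.6 CPM (-1.17), Psmb8 at 97.3 and 44.5 CPM (-1.13) and the activator Nlrc5 at 13.1 and 1.88 CPM (-2.80, -3.46 to -2.24). Summed class I was 6603 and 2746 CPM (-1.27, -1.28 to -1.25). Class II, though low, was further apart at 109 and 14.6 CPM, with Cd74 at 13.3 and 2.17 CPM (-2.62), H2-Aa at 35.9 and 3.43 CPM (-3.39), H2-Ab1 at 48.2 and 7.58 CPM (-2.67) and H2-Eb1 at 11.8 and 1.38 CPM (-3.09). With Leiden clusters in place of marker gates the class II differences were smaller, at -1.80 for Cd74, -2.45 for H2-Aa and -2.14 for H2-Eb1, and with the free RNA subtracted Cd74 stood at -2.32, H2-Aa at -3.67, H2-Ab1 at -2.68 and H2-Eb1 at -3.14. The 10 of 10 members past 2-fold stand against 7.34% of 16889 genes, and the 10 of 10 with an interval below 0 against 30.4%. With median-of-ratios scaling H2-D1 stood at -0.94 (-0.96 to -0.91), which leaves 9 of 10 past 2-fold.

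The lower class I level ran through each endothelial subtype of the Hgf pair. In gCap-like cells class I stood at 7986 and 3318 CPM, in aCap-like cells at 6379 and 2976 CPM, in venous-like cells at 4372 and 1808 CPM and in arterial-like cells at 4812 and 1969 CPM. Lymphatic-like cells, counted apart, stood at 2237 and 2070 CPM with an interval that spanned 0 (log2 ratio -0.28 to 0.06). The level of class II in venous-like cells, which rests in part on 1 control cell with 72 UMIs, was 190.4 and 23.4 CPM. The part of free RNA in that difference was not tested. Depth differed little over all endothelial-like cells, with medians of 2156 and 1927.5 UMIs per cell. It differed more in aCap-like cells (2903.5 and 1989.5 UMIs) and venous-like cells (3444.5 and 2896 UMIs). The endothelial marker score, the mean scaled level of the markers on a scale from 0 to 1, had a median of 0.645 and 0.578 in the Hgf pair and 0.67 and 0.618 in the Bdnf pair, and its part in these results was not tested.

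Interferon response genes in the endothelial-like cells of the Hgf pair had a median of -1.75 over 9 genes, against -0.05 for all genes, with 6 past 2-fold lower, against 7.34% of all genes, among them Isg15 at 30.7 and 6.52 CPM (-2.23), Rtp4 at 74.7 and 17.7 CPM (-2.07) and Irf7 at 15.3 and 3.95 CPM (-1.96). Of 11 other class I pathway genes 6 were past 2-fold lower, including Tapbp, the bridge between class I molecules and the transporter (363 and 149 CPM, -1.29), Psmb9 (49.3 and 18.1 CPM, -1.45) and Psmb10 (107 and 52.7 CPM, -1.02). Among further class I genes H2-Q7, a non-classical heavy chain, stood at 178 and 33.8 CPM (-2.39) and H2-Q6 at 74 and 18.7 CPM (-1.98). Ciita was at 6.15 and 0.593 CPM (-3.37). The constitutive proteasome again stayed near the middle of all genes (median -0.06 against -0.05).

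**Figure D3:**
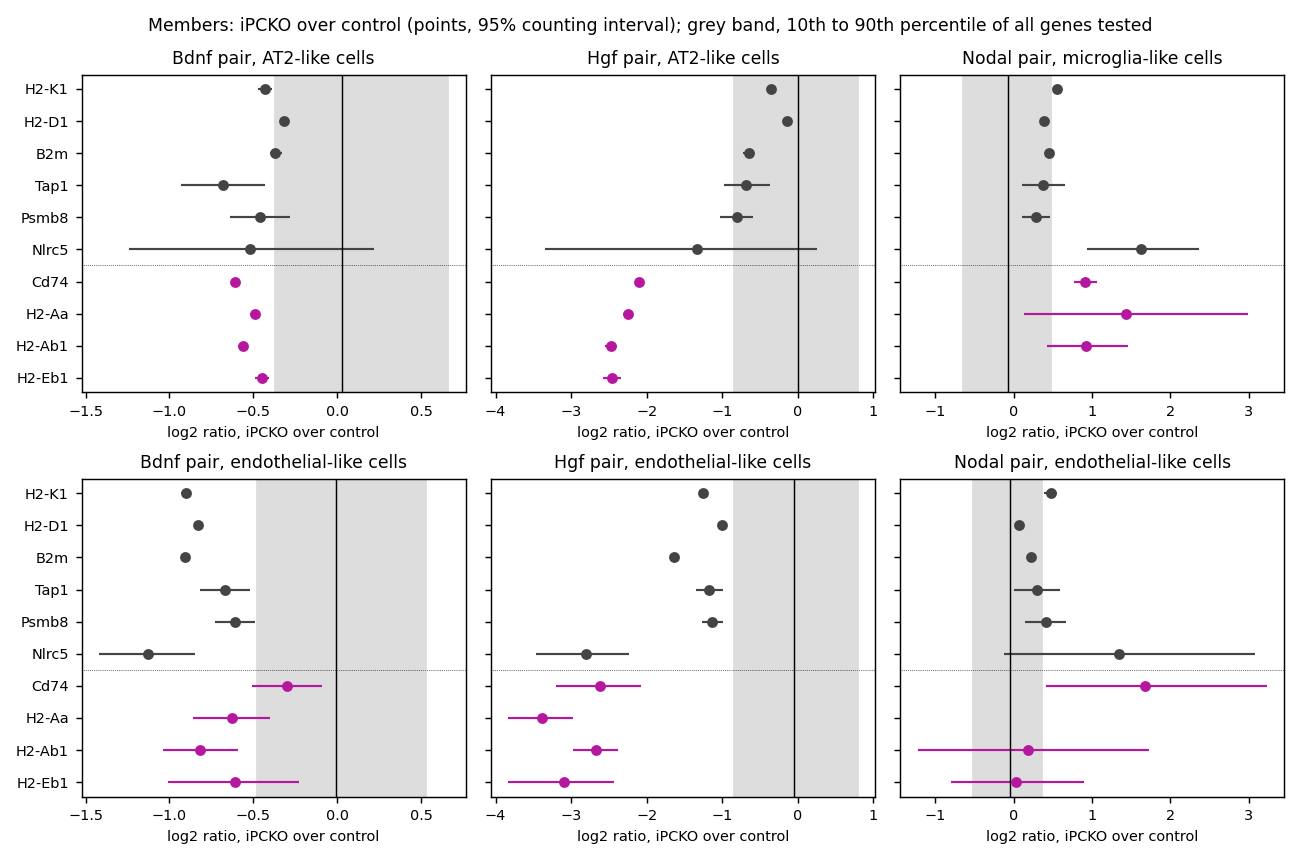
Log2 ratio of iPCKO over control (horizontal axis) for each member, in AT2-like and microglia-like cells (top) and endothelial-like cells (bottom) of each pair. Points are ratios, whiskers 95% counting intervals, grey bands the range from the 10th to the 90th percentile of all genes tested, and the vertical line their median. The members lie on the lower side in both lung pairs, furthest for class II in the Hgf pair (H2-Aa at -2.25 in AT2-like and -3.39 in endothelial-like cells), and on the higher side in the Nodal pair. In the Nodal pair H2-Eb1 is left out in microglia-like cells and H2-Aa in endothelial-like cells, where each had under 20 UMIs over both libraries.

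The Bdnf pair asks the same of Bdnf. Here class I in endothelial-like cells showed the larger difference and class II in AT2-like cells a moderate one. In endothelial-like cells H2-K1 stood at 999 and 536 CPM (log2 ratio -0.90, -0.93 to -0.87), H2-D1 at 3402 and 1915 CPM (-0.83) and B2m at 2405 and 1282 CPM (-0.91). Tap1 was at 42.5 and 26.7 CPM (-0.67) and Psmb8 at 67.8 and 44.4 CPM (-0.61). Nlrc5, at 15.2 and 6.94 CPM (-1.13, -1.42 to -0.85), was the single member past 2-fold, against 2.33% of 19127 genes, and all 10 had intervals below 0, against 19.7% of genes. Summed class I was 6931 and 3811 CPM (-0.86, -0.88 to -0.85) beside a median of -0.01 over all genes. Cd74 was at 19.6 and 15.9 CPM (-0.30), H2-Aa at 17.9 and 11.6 CPM (-0.63), H2-Ab1 at 20.7 and 11.7 CPM (-0.82) and H2-Eb1 at 6.52 and 4.26 CPM (-0.61). These class II levels lie far under that of the free RNA, and with the free RNA subtracted the differences were larger, at -0.92 for Cd74 and, past 2-fold, -1.22 for H2-Aa, -1.11 for H2-Ab1 and -1.54 for H2-Eb1. The interval of H2-Eb1 spanned 0 at a minimum of 3000 UMIs per barcode (-0.78 to 0.06) and with a stricter marker gate (-0.94 to 0.10). With that gate Nlrc5 stood at -0.99, just short of 2-fold, and the interval of Cd74 (-0.57 to 0.00) reached 0.

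Each endothelial subtype of the Bdnf pair shared the lower class I level. It stood at 8538 and 4504 CPM in gCap-like cells, 8726 and 5133 CPM in aCap-like cells, 4706 and 2546 CPM in venous-like cells and 4783 and 2847 CPM in arterial-like cells. The level of class II in aCap-like cells had a ratio whose interval spanned 0 (log2 ratio 0.23, -0.22 to 0.68), while in gCap-like cells it stood at 90.7 and 58.8 CPM (-0.62, -0.82 to -0.43). Free RNA, richer in class II than either subtype, was estimated at 4.33 and 6.94% of the UMIs of aCap-like cells. In gCap-like cells it was estimated at 5.38 and 8.92%. Its part in these 2 class II ratios was not tested, so the subtypes cannot be compared from them.

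Of 10 interferon response genes 7 were past 2-fold lower in endothelial-like cells of the Bdnf pair (median -1.34), against 2.33% of all 19127 genes (median -0.01), including Irf7 at 12.1 and 4.4 CPM (-1.46), Isg15 at 15.1 and 5.67 CPM (-1.41), Rtp4 at 67.3 and 25.7 CPM (-1.39) and Ifit3 at 18.7 and 7.62 CPM (-1.30). H2-Q6 and H2-Q7 stood at 61.9 and 24.8 CPM and at 61.3 and 24.9 CPM, and H2-Q10 and H2-Q1 were past 2-fold lower as well. Of the other class I pathway genes Psmb9 alone was past 2-fold (30.4 and 14.1 CPM), with a list median of -0.43. The constitutive proteasome had a median of -0.14, with none past 2-fold, and Psmb8 went from 274 to 225 UMIs for 100 of Psmb5.

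In AT2-like cells of the Bdnf pair both classes were lower by less than 2-fold. Cd74 stood at 1522 and 998 CPM (log2 ratio -0.61, -0.63 to -0.59), H2-Aa at 715 and 508 CPM (-0.49), H2-Ab1 at 519.9 and 352 CPM (-0.56) and H2-Eb1 at 287 and 210.1 CPM (-0.45). The class II sum was 3045 and 2067 CPM (-0.56, -0.57 to -0.55). H2-K1 was at 277 and 205 CPM (-0.43), H2-D1 at 1210 and 968 CPM (-0.32), B2m at 313 and 243 CPM (-0.37), Tap1 at 7.47 and 4.67 CPM (-0.68) and Psmb8 at 12.8 and 9.35 CPM (-0.46), and class I summed to 1821 and 1430 CPM (-0.35, -0.36 to -0.33). Nlrc5 stood at 0.875 and 0.612 CPM with an interval that spanned 0. No member was past 2-fold, against 1.43% of 20963 genes, and 9 of 10 had intervals below 0, against 19.1%.

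The share of AT2-like cells of the Bdnf pair with neither Cd74 nor a chain gene was 0.751% (0.548 to 1.0) of 5990 and 3.64% (3.21 to 4.1) of 6982 cells, at median depths of 8557 and 5968 UMIs. After thinning to 1500 UMIs 94.9% and 85.1% of cells held a class II UMI. The AT2 markers summed to 119372 and 111371 CPM. Among the other class II pathway genes Ciita stood at 29.6 and 21.5 CPM (-0.46) and H2-DMb1 at 71.3 and 47.4 CPM (-0.59), and of 13 measured H2-Eb2 and Ctss were past 2-fold lower, against 1.43% of all genes. Interferon response genes were mixed here (median -0.43), with Isg15 and Rtp4 past 2-fold lower and Ifit3 past 2-fold higher (2.67 and 5.66 CPM), against 3.87% of all genes past 2-fold higher.

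Across cell types, class I had an interval below 0 in 10 of 11 types of the Bdnf pair and 8 of 10 of the Hgf pair, and above 0 in none. The exceptions were pericyte-like cells of both pairs (log2 ratio -0.14, -0.29 to 0.02, and -0.20, -0.45 to 0.04) and lymphatic-like cells of the Hgf pair. For single genes, the share with an interval below 0 was 19.1% in AT2-like and 19.7% in endothelial-like cells of the Bdnf pair. It was 27.2% and 30.4% in those of the Hgf pair, and was not computed for the other types. Free RNA also held less class I in the Hgf iPCKO library than in its control. Its part in the class I ratios was not tested outside AT2-like and endothelial-like cells. Class II had intervals below 0 in all 7 types of the Hgf pair with at least 20 UMIs but in 4 of 11 of the Bdnf pair. Free RNA held class II at 605 and 76.3 CPM in the Hgf pair and at 719 and 449 CPM in the Bdnf pair, above the control level of each of these types other than AT2-like cells, and its part in their class II ratios was not tested outside AT2-like and endothelial-like cells. In AT1-like cells class II stood at 64.2 and 18.1 CPM in the Hgf pair and 37.4 and 43 CPM in the Bdnf pair, and class I at 2435 and 1626 CPM and at 2063 and 1559 CPM. In ciliated-like cells class II stood at 152 and 79.3 CPM and at 148 and 126 CPM, and the 5% of cells highest in class II held 60.3 to 68.3% of these UMIs in the 4 libraries.

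**Figure D4:**
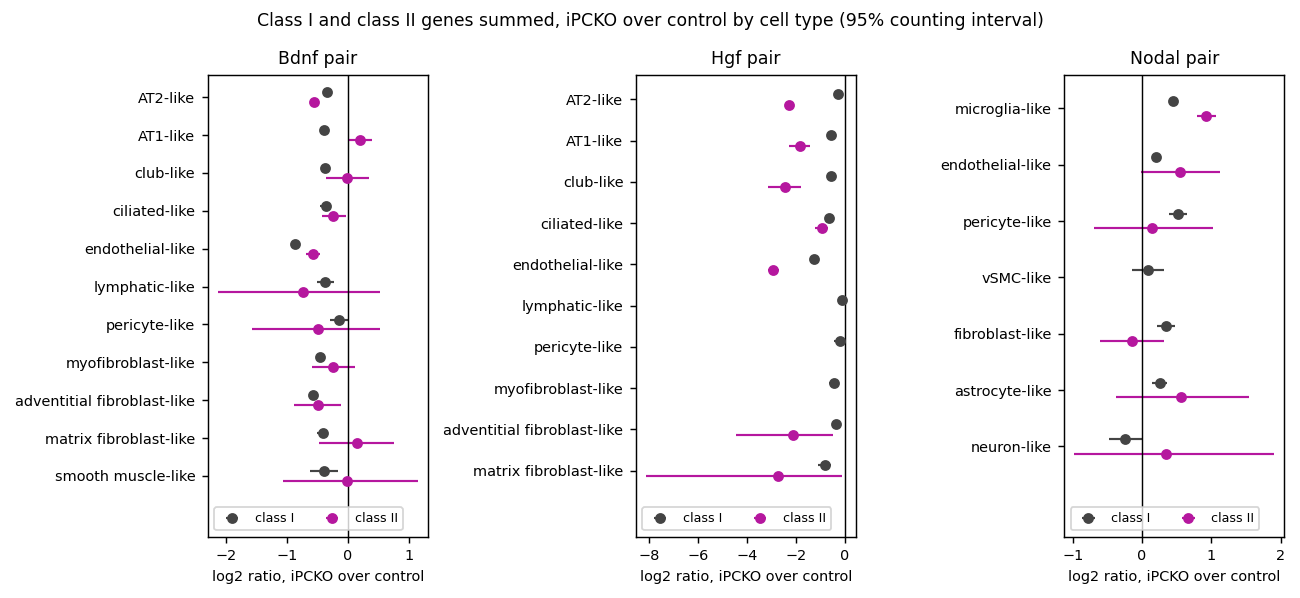
Log2 ratio of iPCKO over control (horizontal axis) of the summed class I (grey) and class II genes (magenta) for each cell type with at least 50 cells and 20 UMIs, with 95% counting intervals. The vertical line marks 0, and the horizontal scales differ between panels. The interval of class I lies below 0 in 10 of 11 types of the Bdnf pair and 8 of 10 of the Hgf pair and above 0 in 5 of 7 types of the Nodal pair.

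The 2 control lungs give a measure of how far libraries of mice without CreERT2 differed, although the floxed gene and the barcode minimum differed too (1500 and 700 UMIs). They also differed in H2-Ea (30327 and 0 UMIs in AT2-like cells) and in H2-D1 for 100 of H2-K1 (437 and 135). Differences between libraries and between the mouse lines therefore cannot be told apart here. In AT2-like cells H2-K1 was 2.08-fold and Psmb8 2.12-fold higher in the Hgf control than in the Bdnf control (5.15% of 19787 genes were past 2-fold higher), and no member was past 2-fold lower (10.0% of genes). In endothelial-like cells H2-Ab1 was 2.33-fold and H2-Aa 2.01-fold higher (5.23% of 17966 genes), and none was past 2-fold lower (8.34%). Summed class I differed by -0.16 in AT2-like and -0.07 in endothelial-like cells on the log2 scale, but its members went opposite ways. In AT2-like cells H2-K1 was at 1.05, H2-D1 at -0.64 and B2m at -0.41 on that scale, each further from 0 than in the Bdnf pair, and in endothelial-like cells H2-K1 was at 0.54, H2-D1 at -0.37 and B2m at -0.03. Interferon response genes had a median of 0.54 in AT2-like and 0.42 in endothelial-like cells, higher in the Hgf control. Summed class II differed by -0.35 in AT2-like cells, beside -0.56 in the Bdnf pair and -2.26 in the Hgf pair. In endothelial-like cells it differed by 0.76, more than in the Bdnf pair (-0.57) and less than in the Hgf pair (-2.91).

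The class I and class II chains also differed in kind between the lung pairs. H2-Ea, which encodes the alpha chain of I-E, the partner of H2-Eb1, stood at 571 and 429.6 CPM in AT2-like cells of the Bdnf pair, with 199 and 205 UMIs for 100 of H2-Eb1. In the Hgf pair no H2-Ea UMI was counted in 5707 and 3958 AT2-like cells, which allows up to 0.108 and 0.203 CPM (3 UMIs, counting error only), while H2-Eb1 was present with 6465 and 627 UMIs. Nor was any H2-Ea UMI counted in microglia-like or endothelial-like cells of the Nodal pair. The ratio of the class I heavy chains differed too, with 437 and 472 UMIs of H2-D1 for 100 of H2-K1 in AT2-like cells of the Bdnf pair and 135 and 155 in those of the Hgf pair. Mice of the H-2b haplotype, such as C57BL/6, carry a non-functional H2-Ea gene. Haplotypes are not given in the labels. The ratios were alike in both libraries of a pair. The fractional parts of the values, from reads divided between genes, added up to 2.43% of the H2-K1 count in AT2-like cells of the Bdnf control. Of the last 500 bases of each member, 60-base stretches shared with another gene were found only in H2-D1 (4.99%). This search used the reference sequence alone, so it cannot show how reads from another haplotype were assigned.

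**Figure D5:**
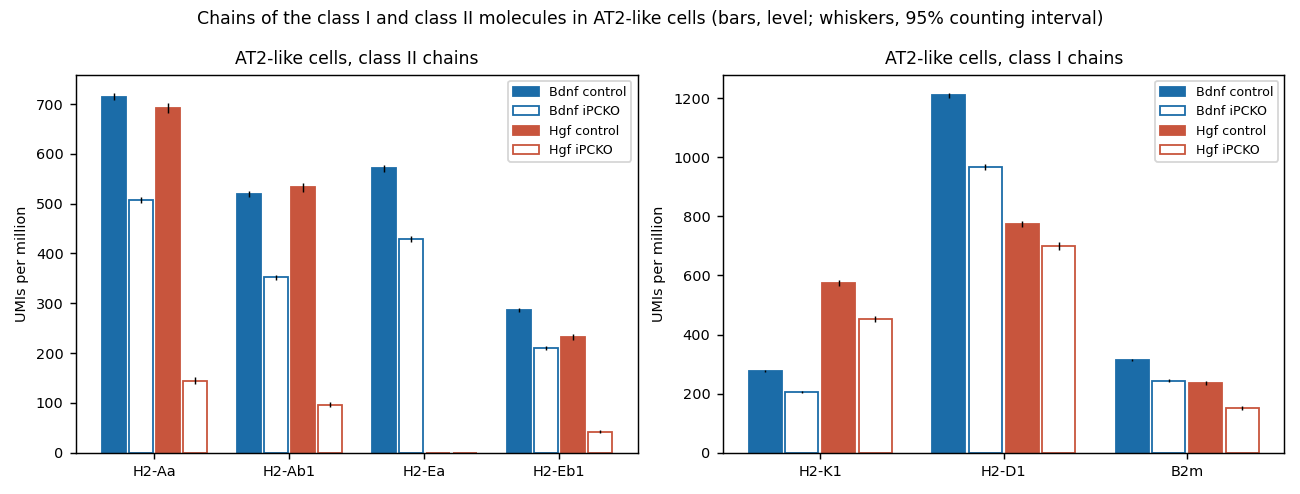
Level in UMIs per 1000000 of the class II chains (left) and the class I chains (right) in AT2-like cells of the 4 lung libraries. Bars are levels, filled for control and open for iPCKO libraries, and whiskers are 95% counting intervals. H2-Ea stands at 571 and 429.6 CPM in the Bdnf pair and at 0 in the Hgf pair, where H2-Eb1 stands at 233 and 42.5 CPM.

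The Nodal pair asks how loss of Nodal from brain pericytes affects the cortex. There all members with at least 20 UMIs were higher in microglia-like cells of the iPCKO library. In these cells Cd74 stood at 92.8 CPM in the control and 175 CPM in the iPCKO library (log2 ratio 0.91, 0.77 to 1.06). H2-Ab1 was at 7.78 and 14.8 CPM (0.93, 0.43 to 1.46) and H2-Aa at 1.09 and 2.92 CPM (1.43, 0.13 to 2.99), while H2-Eb1 had 2 and 10 UMIs, too few for a ratio. The class II sum was 102 and 194 CPM (0.92, 0.79 to 1.06). Cd74 was named by the study among the microglial genes raised in these libraries, so its direction here is not independent evidence.

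Class I in microglia-like cells stood at 4040 and 5526 CPM (log2 ratio 0.45, 0.43 to 0.47). H2-K1 was at 643 and 949 CPM (0.56), H2-D1 at 866 and 1131 CPM (0.39), B2m at 2433 and 3317 CPM (0.45), Tap1 at 29.1 and 38 CPM (0.38) and Psmb8 at 64.8 and 79.1 CPM (0.29). The activator Nlrc5, at 3.8 and 11.7 CPM (1.62, 0.94 to 2.37), had the largest ratio of the 6 class I members. Nlrc5 and H2-Aa were past 2-fold higher, 2 of 9 members tested against 3.03% of 14116 genes, and all 9 had intervals above 0, against 13.8%. With the stricter gate H2-Aa stood at 0.76 with an interval that spanned 0 (-0.65 to 2.39). The median log2 ratio was 0.42 for class I, 0.93 for class II and -0.07 for all genes.

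Among microglia-like cells class II was carried mostly by Cd74 without its partners. For 100 Cd74 UMIs only 9.94 and 10.7 UMIs of the chain genes H2-Aa, H2-Ab1 and H2-Eb1 were counted, against 100 and 107 (Bdnf pair) and 157 and 132 (Hgf pair) in AT2-like cells. A Cd74 UMI was found in 34.3% (31.2 to 37.6) of 859 and 52.3% (49.6 to 55.0) of 1382 microglia-like cells at median depths of 6170 and 6437.5 UMIs, and after thinning to 1500 UMIs in 11.4% and 19.5%. In astrocyte-like cells, given for the background, the shares were 0.69% (0.224 to 1.6) and 0.246% (0.0298 to 0.885) at 10246 and 11052.5 UMIs. Cells with Cd74 but no chain made up 32.5% (29.4 to 35.7) and 47.0% (44.3 to 49.6) of microglia-like cells and those with both 1.86% (1.07 to 3.01) and 5.35% (4.23 to 6.68).

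Interferon response genes were higher in the same microglia-like cells, with 6 of 10 past 2-fold, against 3.03% of all 14116 genes, and a median of 1.42 against -0.07. Ifit3 stood at 1.54 and 17.1 CPM (3.47, 2.55 to 4.80), Ifi27l2a at 18.5 and 96.6 CPM (2.39), Irf7 at 2.35 and 11.5 CPM (2.29), Rtp4 at 8.95 and 43.6 CPM (2.28), Isg15 at 4.34 and 15 CPM (1.79) and Gbp2 at 5.79 and 12 CPM (1.05). Irf1, a transcription factor of the interferon response, went the other way, at 83.2 and 69.1 CPM (-0.27, -0.44 to -0.09). H2-Q6 and H2-Q7 were also past 2-fold higher, at 25.2 and 67.9 CPM and at 24.3 and 61 CPM. The other genes of the class I pathway differed little (median 0.07 over 11 genes, none past 2-fold), for example Tapbp at 184 and 177 CPM and Tap2 at 25.3 and 24.5 CPM, and Ciita was at or near 0 (1 and 0 UMIs). Of 13 other class II pathway genes none was past 2-fold, with H2-DMa at 70 and 107 CPM (0.61) and Ctss, a protease that trims Cd74, at 4155 and 5147 CPM (0.31). The microglia marker score was lower in the iPCKO library (median 0.807 and 0.688), and its part in these results was not tested.

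In endothelial-like cells of the Nodal pair class I stood at 1423 and 1640 CPM (log2 ratio 0.20, 0.17 to 0.23), with H2-K1 at 161 and 225 CPM (0.48), H2-D1 at 538 and 567 CPM (0.07), B2m at 687 and 802 CPM (0.22), Tap1 at 15.8 and 19.4 CPM (0.30) and Psmb8 at 19.3 and 25.6 CPM (0.41). Nlrc5 was at 0.54 and 1.38 CPM, and its interval (-0.12 to 3.08) spanned 0. Cd74 was at 0.648 and 2.08 CPM (1.68, 0.42 to 3.23), under the free RNA of these libraries (20.7 and 24.2 CPM). With that subtracted no Cd74 UMI was left in the control. The ratio of 1.11 then obtained rests on a floor of 3 UMIs and has no upper bound. H2-Aa, H2-Ab1 and H2-Eb1 each had intervals that spanned 0. Of 9 members tested 2 were past 2-fold higher (Nlrc5 and Cd74), against 1.72% of 15930 genes, and 6 had intervals above 0, against 10.1%. No interferon response gene was past 2-fold here (median 0.21).

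Class I had an interval above 0 in 5 of 7 cortical types. For single genes, the share with an interval above 0 was 13.8% in microglia-like and 10.1% in endothelial-like cells. That share was not computed for the other types. Pericyte-like cells, in which no Nodal UMI was counted in the iPCKO library, stood at 504 and 722 CPM of class I (log2 ratio 0.52, 0.39 to 0.65). B2m was at 294 and 476 CPM (0.70), Psmb8 had a log2 ratio of 0.98 and H2-D1 one of 0.05 (-0.21 to 0.32). In these cells 8 of 9 interferon response genes measured were past 2-fold higher (median 1.82), against 2.55% of all 10945 genes tested there (median 0.01), among them Ifit1 at 2.14 and 14.6 CPM (2.76) and Rtp4 at 6.08 and 31.7 CPM (2.38). Fibroblast-like cells stood at 579 and 736 CPM of class I and astrocyte-like cells at 176 and 209.9 CPM. In astrocyte-like cells the 5% of cells highest in class I held 22.2% and 29.7% of its UMIs, and with the free RNA subtracted B2m went from 0.17 to -0.15 (-0.36 to 0.05) and H2-D1 from 0.31 to -0.21 (-0.58 to 0.15). The class I interval of vSMC-like cells (0.08, -0.15 to 0.31) spanned 0, and neuron-like cells stood at 119 and 100.2 CPM (-0.25, with an upper bound that rounds to 0). Class II had an interval above 0 in microglia-like cells alone, 1 of 6 types with at least 20 UMIs.

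Over the cell types of both control lungs the class II genes were close to one another in pattern and the class I genes less so. Among 15650 genes, the 5 whose log2(CPM + 1) was most like that of H2-K1 over 21 points (cell type and library) were Scarb1 (r = 0.864), Mapk3 (0.853), Rnf213 (0.844), Sox17 (0.832) and Trim30a (0.828), and the members Psmb8 (0.804) and H2-D1 (0.802) ranked 10 and 12. The other class I members were much less like H2-K1, with Tap1 at rank 517 (0.562), Nlrc5 at 598 (0.544) and B2m at 784 (0.505), not far from the class II gene H2-Ab1 at 1267 (0.440). The 5 most like H2-Aa were H2-Eb1 (0.947), Nalf2 (0.929), H2-Ab1 (0.926), Lyz2 (0.913) and Atp6v1g3 (0.912), with Cd74 at rank 18 (0.884). H2-Aa and B2m had an r of -0.386. The points share libraries and depth, and H2-K1 had an interval above 0 in the Hgf control against the Bdnf control in 8 of 10 types and H2-D1 in none, so these values mix differences between the 2 libraries with those between cell types. In types other than AT2-like cells class II lay under its level in free RNA. The part of free RNA in the likeness of the class II genes was not tested.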

How the data were processed

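Per the labels and methods, the authors aligned BD Rhapsody reads with STARsolo to GRCm39 and deposited, for all barcodes, estimated counts of UMIs per gene in which reads shared between genes were divided by expectation maximisation, so 8.502 to 9.948% of entries are not whole numbers. The Gencode release is given as vM33 in one place and M26 in another. Here barcodes with at least 1500 UMIs (700 in the Hgf pair) were kept, and a cell was assigned where its top marker score was at least 0.3, the second was below 0.6 of it and at least 3 markers were detected. No doublet caller was run, and cells with weaker markers of another type, under the limit on the second score, stayed in. Deposited counts were summed per library and type and divided by the type's total (CPM, per 1000000 UMIs). Log2 ratios have conditional exact 95% intervals, levels exact Poisson and shares Clopper-Pearson intervals, which cover counting error only. Ratios were set against 2-fold for genes whose UMIs over a pair reached 20. Shares were thinned to 1500 or 700 UMIs per cell. Barcodes with 10 to 100 UMIs stood for free RNA. With 1 library per genotype no test between genotypes was possible. The interval method was run on simulated independent Poisson counts, the model it assumes, so the check does not cover UMIs clustered in a few cells. Alternatives were a higher UMI minimum, a mitochondrial limit of 20%, Leiden clusters, a stricter gate, the whole part of counts, median-of-ratios scaling, free RNA subtraction, class I without its heavy chains and class II without the 5% highest cells. The named genes were the 10 members and, from lists of the pathways, those past 2-fold with at least 20 UMIs, plus the 5 genes most like H2-K1 and H2-Aa among genes with at least 200 UMIs; other genes are given for their role. The values of 1 listed gene are not reported here. Members and lists were chosen with earlier results of these data known. Python 3.11.15, numpy 2.4.6, scipy 1.17.1, pandas 2.3.3, scanpy 1.11.5 and leidenalg 0.10.2 were used.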

Additional observations from a re-analysis of the deposited data

Results flagged for a closer look

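The class I log2 ratio in endothelial-like cells had opposite signs in cortex and lung. It was 0.20 in the Nodal pair against -0.86 in the Bdnf pair, a difference of 1.06, and against -1.27 in the Hgf pair, a difference of 1.47. These ratios were set apart because the single iPCKO library of one pair lay above its control and that of the other below it. The difference was not tested, since each genotype has 1 library, and the pairs also differ in organ, age and deleted gene.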

How the results depend on the processing

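Of 72 recomputed values for the 9 summed ratios, 46 moved by less than their counting interval, 26 moved by more, and none changed sign. With median-of-ratios scaling, class I stood at -0.38 (Bdnf AT2-like), -0.85 (Bdnf endothelial-like), -0.32 (Hgf AT2-like), -1.20 (Hgf endothelial-like), 0.26 (Nodal endothelial-like) and 0.54 (microglia-like), and class II at -0.59 (Bdnf AT2-like). With free RNA subtracted, class I stood at -0.32 and -0.84 in AT2-like and endothelial-like cells of the Bdnf pair and at -0.26 in AT2-like cells of the Hgf pair, and class II at -0.50 in AT2-like cells of the Bdnf pair. With a stricter gate the class I values were -0.88 (Bdnf endothelial-like), -0.24 (Hgf AT2-like), -1.29 (Hgf endothelial-like) and 0.42 (microglia-like), and class II was -0.52 (Bdnf AT2-like). Leiden clusters gave -0.53 for class II in Bdnf and -0.25 for class I in Hgf AT2-like cells, and a UMI minimum of 3000 gave -0.89 for class I in Bdnf endothelial-like cells. The cause was not tested. A pair of alternatives was chosen after seeing the data. Without H2-K1 and H2-D1, class I stood at -0.38 (Bdnf AT2-like), -0.90 (Bdnf endothelial-like), -0.67 (Hgf AT2-like), -1.61 (Hgf endothelial-like) and 0.23 (Nodal endothelial-like). Without the 5% of cells highest in class II, class II stood at -0.60 and -2.47 in AT2-like cells of the Bdnf and Hgf pairs. Of 549 values for single genes and other cell types 500 moved by less than their interval, 48 by more, and 1 whose interval had excluded 0 changed sign: H2-D1 in astrocyte-like cells of the Nodal pair was 0.31 and, with free RNA subtracted, -0.21 (-0.58 to 0.15). No paired analysis was possible because each genotype has 1 library, and no library could be left out for the same reason. Differences between mice, litters or preparations cannot be told apart from genotype, and the intervals do not cover them.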

Other observations

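Dendritic-like cells were too few for a comparison but carried class II chains beside Cd74. In the cortex 1 dendritic-like cell of the control held 636 class II UMIs and 3 of the iPCKO library held 976, and the control cell held 237 UMIs of the chain genes for 100 of Cd74, against 9.94 in microglia-like cells of that library. Immune-like cells that escaped the depletion of the lung made up 0.07% and 0.037% of barcodes in the Bdnf pair and 0.274% and 0.291% in the Hgf pair.

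Border macrophage-like cells of the Nodal pair held 13 class II UMIs, all of Cd74, in 27 control cells and 327 in 24 iPCKO cells. Of the latter 317 lay in 1 cell, which also held 20 UMIs of Ccr2, a receptor of monocytes and their progeny, 4 of Mrc1 and 0 of Lyve1, both markers of border macrophages. That cell held 3 UMIs of Cd209a, a marker used here for dendritic-like cells. The dendritic-like cell of the control held 23 UMIs of Ccr2, 12 of Cd209a, 1 of Mrc1 and 0 of Lyve1. The other 23 border macrophage-like cells of the iPCKO library stood at 62.8 CPM and those of the control without their own highest cell at 50.4 CPM. The iPCKO cell with 317 class II UMIs was named after its values were seen.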
